A study of Mus musculus with 2 samples.

Results

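A set of 10 selenoprotein genes was followed here across both arrays of a study of mouse embryonic stem cells, which asked which transcripts differ when Dab2, the gene of an endocytic adaptor protein, is targeted. The 10 genes are Gpx1, Gpx2, Gpx3, Gpx4, Selenoh, Selenop, Selenow, Selenof, Msrb1 and Txnrd1, out of 12393 genes with a probe set assigned to that gene alone. They were chosen by name, with their measured differences between the arrays already known, so their values are a description and no test of them is given. All 14 probe sets annotated to exactly 1 of these genes were used, out of 20380 such probe sets. The shDAB2 sample was clone 4 of E14tg2a cells stably transfected with a plasmid for the hairpin shDAB2-285, and the vector sample was clone 9 of E14tg2a cells carrying the control plasmid. E14tg2a is an HPRT-deficient mouse embryonic stem cell line, a background that both clones share. Both grew untreated in GMEM with 10% fetal bovine serum, L-glutamine, penicillin, streptomycin and 1000 U/ml of LIF, the cytokine that keeps these cells undifferentiated. Serum is a source of selenium for cultured cells, and the labels name no added selenium. Each clone is 1 culture on 1 Affymetrix mouse 430A array, so hairpin, clone and culture cannot be told apart, and no spread between samples exists.

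Selenoproteins carry selenocysteine, the selenium analogue of cysteine, which is inserted at a UGA codon when a hairpin in the 3′ end of the mRNA recruits a dedicated elongation factor. Most of the enzymes among them use this residue to reduce peroxides, disulphides or oxidised methionine. When selenium runs short, the family is not affected evenly. Transcripts such as Gpx1 and Selenoh are known in rodents to fall early, in part because a ribosome stopping at the UGA codon exposes them to nonsense-mediated decay, whereas Gpx2, Gpx4 and Txnrd1 are kept. On that textbook ranking, Gpx1, Gpx3, Selenoh, Selenow and Msrb1 were treated as selenium-sensitive and Gpx2, Gpx4, Selenof and Txnrd1 as selenium-resistant, and Selenop, which is intermediate, was put in neither class.

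Values are log2 expression values per probe set, and a difference is the shDAB2 value minus the vector value. The floor was 6.62, the median of all values on both arrays, and a gene was kept when the higher of its 2 values reached it, which 7269 genes did. All 10 selenoprotein genes passed, 9 of them on both arrays. Selenop passed through the shDAB2 array only. On both arrays the embryonic stem cell label fitted its markers. All 8 of them, Pou5f1, Sox2 and Nanog included, lay above the floor, between 8.18 and 12.29 on the shDAB2 array and between 8.43 and 12.37 on the vector array. Of the markers of other cells, 0 of 5 for primitive endoderm, 0 of 5 for fibroblasts and 1 of 4 for trophectoderm passed the floor. The marker above it was Hand1, which differed by -0.02. Dab2 itself was dim and read 6.33 on the shDAB2 array against 6.64 on the vector array on its brightest probe set. Its other 2 probe sets differed by -0.05 and -0.01.

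In all, 4 glutathione peroxidases that carry selenocysteine were measured, and they split into a pair that was higher in the shDAB2 clone and a pair that was not. Gpx2, the gastrointestinal enzyme first known from gut epithelium, read 7.95 on the shDAB2 array against 6.76 on the vector array. The difference was 1.19, or 2.28-fold higher, and ranked 2 among the 7269 genes. The vector value lay just above the floor, a range in which RMA is known to shrink differences. In RNA of a whole culture, more cells that express a gene and more RNA per cell cannot be told apart. Gpx1, the abundant cytosolic enzyme that removes hydrogen peroxide, read 10.30 on the shDAB2 array against 9.43 on the vector array. It was 1.82-fold higher, a difference of 0.87, which ranked 5.

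Gpx3, the secreted plasma enzyme, read 7.38 on the shDAB2 array against 7.40 on the vector array, a difference of -0.02. Gpx4, which reduces lipid hydroperoxides in membranes and guards cells against ferroptosis, read 10.71 and 10.79 on its brighter probe set, a difference of -0.08. Its second probe set gave 10.15 on the shDAB2 array against 10.25 on the vector array, a difference of -0.10. The brighter carries the suffix _a_at, which marks probes shared by transcripts of 1 gene, and the second _x_at, which marks probes that can also match other transcripts. Both Gpx4 probe sets had the same sign and a small size, and neither approached the 1.5-fold limit (0.58 on the log2 scale). The reference annotation lists pseudogenes of Gpx2 and Gpx4, and whether these probes also match such copies was not tested.

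**Figure D1:**
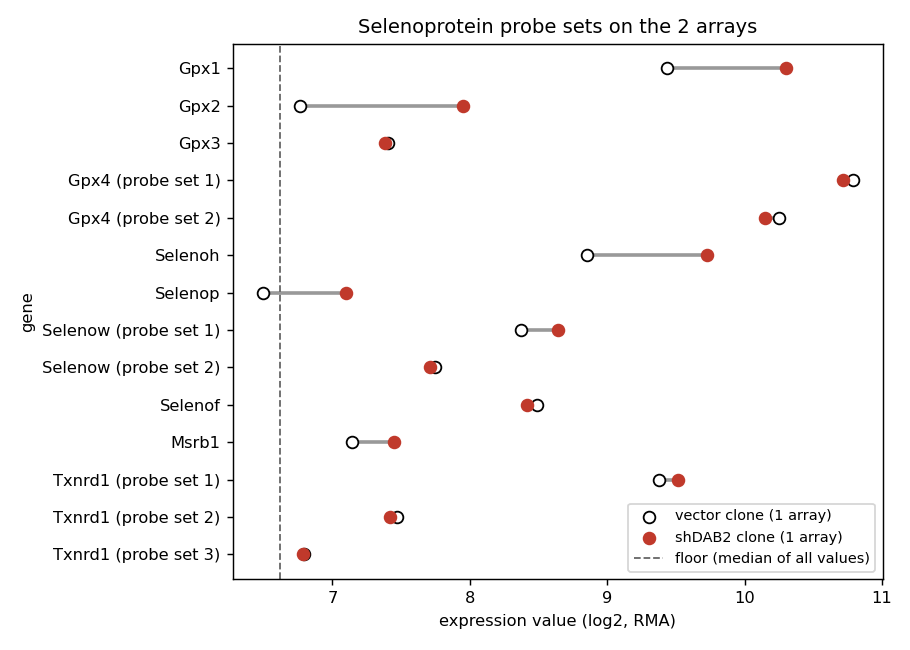
Expression value (log2, RMA) of each of the 14 selenoprotein probe sets in the vector clone (open circles) and the shDAB2 clone (filled circles), 1 array each, joined by a line, with the floor of 6.62 dashed. Gpx2, Gpx1, Selenoh and Selenop show the widest gaps, while both probe sets of Gpx4 lie close together.

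Selenoh, a small thioredoxin-fold selenoprotein of the nucleolus, stood beside Gpx1. Its value was 9.72 on the shDAB2 array against 8.85 on the vector array, a difference of 0.87 or 1.83-fold, ranking 4. Selenow, another small thioredoxin-fold selenoprotein, gave no single answer. Its brighter probe set read 8.64 on the shDAB2 array against 8.38 on the vector array, 0.27 higher, but is an _x_at probe set as well. The second probe set read 7.71 and 7.74, a difference of -0.04, so the direction of Selenow depends on the probe set. Msrb1, which reduces oxidised methionine and acts on actin, read 7.45 on the shDAB2 array against 7.14 on the vector array, 0.30 higher.

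Selenop, the secreted carrier that delivers selenium between tissues, read 7.10 on the shDAB2 array against 6.49 on the vector array. The difference of 0.61 lay only just past the limit. The vector value was below the floor, so Selenop was kept only through the array on which it is high, and its size is uncertain. Selenof, which binds the glycoprotein folding sensor of the endoplasmic reticulum, read 8.41 on the shDAB2 array against 8.49 on the vector array, a difference of -0.08. Txnrd1, the cytosolic thioredoxin reductase, differed by 0.14 on its brightest probe set, with 9.51 on the shDAB2 array against 9.37 on the vector array. The other Txnrd1 probe sets gave -0.05 and -0.01, so its sign too changed with the probe set.

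Of the 10 genes, 4 were at least 1.5-fold higher in the shDAB2 clone and 0 were 1.5-fold lower. Of these 4, Selenop was below the floor on the vector array, which leaves 3 measured above the floor on both. Of all 7269 genes above the floor, 0.578% passed that limit upward and 1.62% downward. At 2-fold 1 of the 10 genes was higher, Gpx2, where 0.0275% of all genes passed upward and 0.179% downward. At 1.2-fold the count was 6 higher, with Msrb1 and Selenow added, where 7.97% of all genes passed upward and 8.8% downward. Since the genes were picked with these differences known, the share among them is not evidence about the family. The 10 genes had a median of 0.29, with 7 higher and 3 lower, beside 3636 higher, 3585 lower and a median of 0.00063 over all genes. The 4 genes past the limit are each measured by 1 probe set, so the repeat within a gene that exists for Gpx4, Selenow and Txnrd1 is missing for them. Over 2502 genes with several probe sets above the floor, the SD of 1 probe set's difference was 0.11, which covers probe noise and transcript variants but not cultures or clones.

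**Figure D2:**
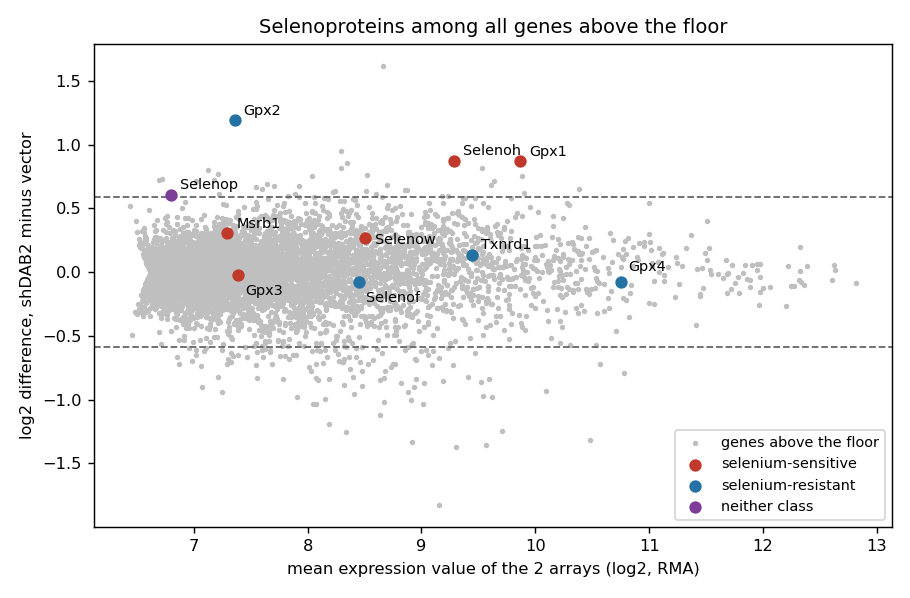
Log2 difference (shDAB2 minus vector) against the mean log2 value of both arrays for the 7269 genes above the floor (grey) and the 10 selenoprotein genes (coloured by class), with dashed lines at 1.5-fold. Gpx2, Selenoh and Gpx1 lie at the upper edge of the cloud, at 1.19, 0.87 and 0.87, and Gpx3, Gpx4 and Selenof lie near 0.

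No likeness of pattern beyond the size of 1 difference can be had from 2 arrays. On that measure Selenoh and Gpx1 were neighbours, 0.0070 apart. The gene ranked directly below Gpx1 was Nefl, a neurofilament gene, at 0.86. Above Selenoh and below Gpx2 stood Cbr3, a carbonyl reductase gene, at 0.95, and above Gpx2 stood Upp1, the uridine phosphorylase gene, at 1.62.

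The selenium-sensitive and selenium-resistant classes overlapped. Among the 5 sensitive genes the differences ran from -0.02 for Gpx3 to 0.87 for Selenoh, with a median of 0.30. Among the 4 resistant genes they ran from -0.08 for Selenof to 1.19 for Gpx2, with a median of 0.03. The medians differed by 0.27, with the sensitive class higher, yet the largest difference of all belonged to Gpx2, a resistant gene, and the sensitive gene Gpx3 showed next to none. Without Gpx2 the gap between the medians was 0.38, and with class means in place of medians it was 0.16. Restricting the comparison to probe sets without the suffixes _s_at, _x_at and _a_at, which leaves 4 sensitive and 2 resistant genes, turned the gap to -0.13. The order of the classes is therefore not settled by these arrays.

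**Figure D3:**
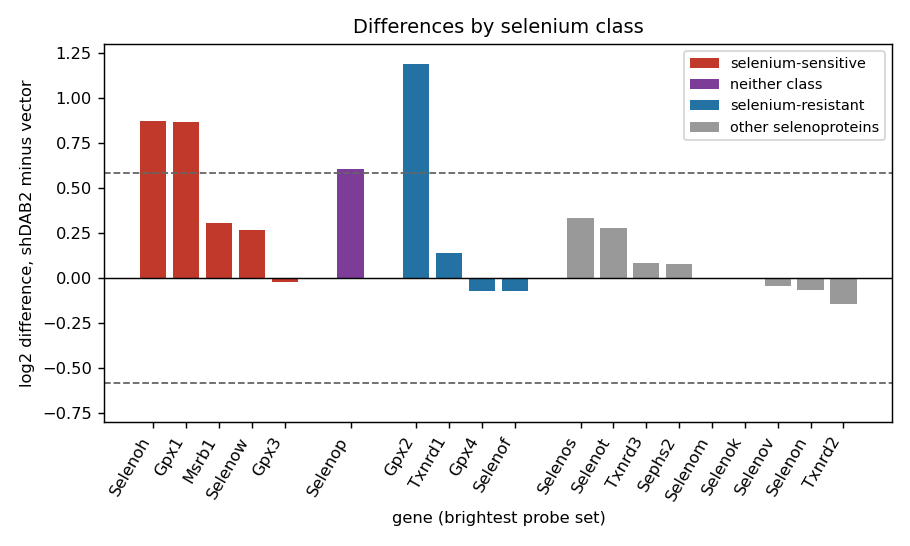
Log2 difference (shDAB2 minus vector) of the brightest probe set of each gene, as bars from 0, for the selenium-sensitive class, Selenop, the selenium-resistant class and 9 other selenoprotein genes above the floor, with dashed lines at 1.5-fold. Each class holds both large and small bars, and the other selenoproteins stay between -0.14 and 0.33.

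Of 14 other selenoprotein genes, 11 were measured and 9 lay above the floor, 4 of them higher and 5 lower, with a median of -0.01. With the floor at the 75th percentile, which leaves 4 genes, the median was 0.18, so its sign is not settled. Among the 9 genes, 0 reached 1.5-fold, where 0.578% of all genes did so upward and 1.62% downward, so nothing is read from that count. Selenos, a membrane protein of endoplasmic reticulum degradation, was highest at 0.33, but its other probe sets gave 0.06 and 0.08. Selenot, a thioredoxin-fold protein of the endoplasmic reticulum, was 0.28 higher, from 8.60 in the vector clone to 8.87 in the shDAB2 clone. Sephs2, itself a selenoprotein and the enzyme that makes the active selenium donor, differed by 0.08, -0.04 and 0.03 on its probe sets. Selenok (-0.01) and Selenom (-0.01), both of the endoplasmic reticulum, were level between the arrays, as was Selenov (-0.05). Selenon, which acts in calcium handling of muscle, differed by -0.07.

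The remaining thioredoxin reductases went apart by small amounts. Txnrd2, the mitochondrial enzyme, differed by -0.14 and -0.09 on its probe sets. Txnrd3, known from testis, differed by 0.08 on its brightest and by 0.10 and -0.01 on the others, so its sign depends on the probe set. Txnrd3 reached the floor in the shDAB2 clone only. The deiodinase genes Dio1 and Dio2, which act on thyroid hormone, lay below the floor and differed by 0.02 and -0.03. Glutathione peroxidase homologues that use cysteine in the mouse were not higher in the shDAB2 clone. Gpx7 and Gpx8, of the endoplasmic reticulum, read -0.05 and -0.14, and Gpx5 (-0.09) and Gpx6 (-0.07) lay below the floor.

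The gene 5′ flanks of the higher glutathione peroxidases and Selenoh are printed because these are the genes with the largest differences. That of Txnrd1 is printed because, of the 10 genes, it alone held an antioxidant response element core in the stretch searched. Each is the 250 bases before a RefSeq transcript start in GRCm38.p6, 5′ to 3′ on the gene's strand, with motif matches in capitals. All 10 genes matched the RefSeq promoter table, with 17 starts in all, and for Txnrd1 the start that holds the match is shown out of 3.
Gpx2 (chr12:76795555-76795804, minus strand): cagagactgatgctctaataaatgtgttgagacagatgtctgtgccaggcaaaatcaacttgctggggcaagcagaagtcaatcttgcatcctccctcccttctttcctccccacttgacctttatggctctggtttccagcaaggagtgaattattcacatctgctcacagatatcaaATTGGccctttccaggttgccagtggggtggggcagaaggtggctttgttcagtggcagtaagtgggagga
Gpx1 (chr9:108338830-108339079, plus strand): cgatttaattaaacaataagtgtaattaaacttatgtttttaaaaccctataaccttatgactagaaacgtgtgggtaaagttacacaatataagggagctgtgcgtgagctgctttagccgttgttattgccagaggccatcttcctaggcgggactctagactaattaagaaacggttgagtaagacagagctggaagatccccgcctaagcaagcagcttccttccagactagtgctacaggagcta
Selenoh (chr2:84670709-84670958, minus strand): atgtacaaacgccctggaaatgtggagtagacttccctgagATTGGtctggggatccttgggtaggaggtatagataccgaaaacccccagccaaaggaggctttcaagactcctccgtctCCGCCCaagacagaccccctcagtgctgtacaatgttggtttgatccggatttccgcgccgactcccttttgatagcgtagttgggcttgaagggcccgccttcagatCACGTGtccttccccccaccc
Txnrd1 (chr10:82858956-82859205, plus strand): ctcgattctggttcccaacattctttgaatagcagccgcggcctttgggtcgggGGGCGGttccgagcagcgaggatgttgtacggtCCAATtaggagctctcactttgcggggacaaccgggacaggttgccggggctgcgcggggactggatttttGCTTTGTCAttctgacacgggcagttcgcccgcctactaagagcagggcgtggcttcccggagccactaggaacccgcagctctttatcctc

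Motifs were searched on both strands, and no match overlapped another in the 4 sequences printed. The antioxidant response element core, TGACNNNGC, is bound by NRF2, the factor that induces Gpx2 and Txnrd1 in other settings. It occurred in 1 of the 10 genes, Txnrd1, on the reverse strand from 92 to 84 bases before the start. It also occurred in 10.2% of all 32851 promoters of this length, so nothing is read from that count. Only 250 bases were searched, so a gene without a match may hold the element elsewhere. The GC box GGGCGG was found in 6 of the 10 genes, Selenoh and Txnrd1 included, and in 32.7% of all promoters. The CCAAT box occurred in 7 of the 10 genes and in 33.8% of all promoters. In Gpx2 it lies on the reverse strand, from 71 to 67 bases before the start. Selenoh holds the E-box CACGTG from 21 to 16 bases before its start, a motif present in 6.02% of promoters. The TATA box sequence TATAAA was found in Selenop and Msrb1 and in 12.4% of all promoters. In Selenop it lies from 10 to 5 bases before 1 of its 3 starts. In Msrb1 it lies on the reverse strand, from 241 to 236 bases before the start. Whether either works as a TATA box was not tested. The 250 bases of Gpx1 matched none of these 5 motifs, so none of them was common to Gpx1, Gpx2 and Selenoh. Genes with several starts have more sequence searched than a single promoter, so counts of genes are not on the same footing as the shares.

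A feature that the choice of genes did not use was gene span, the distance from first to last annotated base. Gpx1 spans 1263 bases, Selenoh 1494 and Gpx2 3220, which puts all 3 in the first of 10 equal bins of the 7265 genes with a known span, ordered from short to long. In that bin of 727 genes, 1.93% were at least 1.5-fold higher in the shDAB2 clone and the median difference was 0.03. In the bin of the longest genes these were 0.138% and -0.04. The share of 1.93% counts Gpx1, Selenoh and Gpx2 themselves, which were picked with their differences known, so it is no independent background for them. Of the 10 selenoprotein genes, 8 lay in the 3 bins of the shortest genes, among them Gpx3 (7534 bases) and Gpx4 (9274 bases), which differed little. Txnrd1 was the longest at 63774 bases. With the median of genes of like span and signal subtracted, the differences were 1.15 for Gpx2, 0.82 for Selenoh, 0.81 for Gpx1 and 0.59 for Selenop. The medians subtracted are small beside these differences, so the subtraction could not remove them. It also leaves the uneven share of genes past 1.5-fold untouched. Whether span has a part in the differences was not tested.

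**Figure D4:**
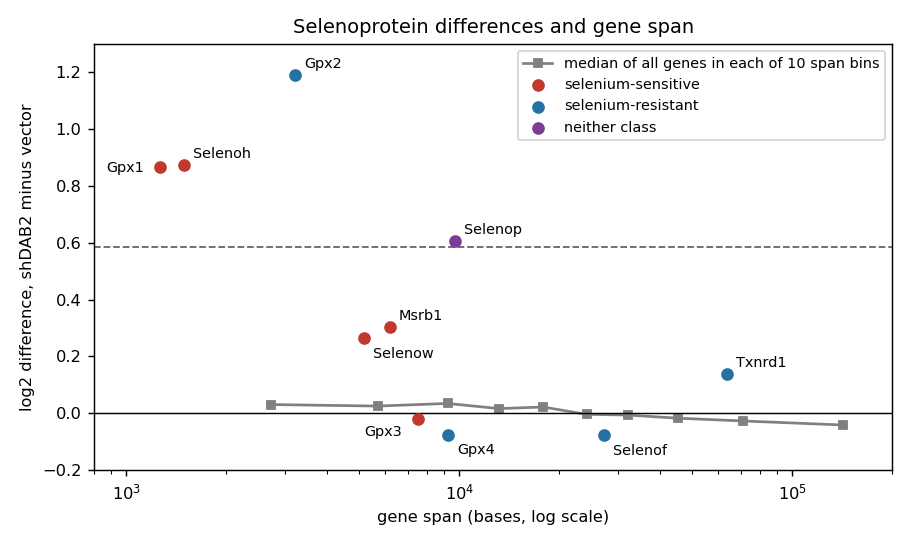
Log2 difference (shDAB2 minus vector) of the 10 selenoprotein genes, coloured by class, against gene span in bases on a log axis, with the median of all genes in each of 10 span bins as grey squares placed at the median span of the bin and 1.5-fold dashed. Gpx1, Selenoh and Gpx2 have the shortest spans and the largest differences, far above the grey medians of -0.04 to 0.03.

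Among genes that make and insert selenocysteine, 1 was more than 1.5-fold lower, as were 1.62% of all genes. Of 13 listed, 9 were measured and 6 lay above the floor, 4 higher and 2 lower, with a median of 0.06. That gene was Sars, the seryl-tRNA synthetase that charges the selenocysteine tRNA with serine as well as the serine tRNAs. It read 8.88 on the shDAB2 array against 10.24 on the vector array, 2.56-fold lower, and its second probe set was 2.49-fold lower. Pstk, the kinase that acts next on that tRNA, was 0.20 higher on its brighter probe set, while Sepsecs, which completes selenocysteine, lay below the floor at -0.08. Eefsec, the elongation factor that brings the tRNA to the ribosome, read 6.96 on the shDAB2 array against 7.24 on the vector array, a difference of -0.27. Ncl, a nucleolar protein that also binds selenoprotein mRNA, was 0.18 higher on its brightest probe set, with 0.03 to 0.52 on the others. Trit1, which modifies this and other tRNAs, differed by 0.04. Sephs1 (0.06) and Secisbp2l (-0.04), paralogues of Sephs2 and of the SECIS-binding protein, lay below the floor.

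Among genes of selenium uptake and supply, 7 of 8 were measured and 5 lay above the floor, 1 higher and 4 lower, with a median of -0.15. The 2 genes left with the floor at the 75th percentile, Lrp2 and Cth, had a median of -0.47. Lrp2, or megalin, an endocytic receptor that binds both selenoprotein P and Dab2, read 7.32 on the shDAB2 array against 7.65 on the vector array. Its probe sets differed by -0.33 and -0.27. The related receptor Lrp1 differed by -0.15, and Lrp8, the selenoprotein P receptor of brain and testis, lay below the floor at -0.13. Cth, which releases cysteine and hydrogen sulphide from cystathionine and can also act on selenium compounds, read 8.31 and 8.91, 1.52-fold lower in the shDAB2 clone. Cbs, the step before it, was 0.08 higher, Scly, which frees selenium from selenocysteine, differed by -0.06, and Selenbp1, which binds selenium without being a selenoprotein, lay below the floor at 0.00.

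The factors of nonsense-mediated decay, which degrades some selenoprotein mRNAs when selenium is short, were measured in part. Of 13 listed, 7 were measured and 6 lay above the floor, 4 higher and 2 lower, with a median of 0.13. The largest differences were Smg8 at 0.26, Upf2 at 0.19, Rbm8a at 0.14 and Smg5 at 0.11. The second probe sets of Rbm8a and Smg5 gave 0.00 and 0.03. With the mean of all probe sets the list median was 0.07.

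Supply of glutathione and NADPH, which glutathione peroxidases and thioredoxin reductases consume, was mixed. Of 13 genes listed, 11 were measured. The list median was 0.02 over 10 genes above the floor, of which 6 were higher. Pgd, an NADPH-producing enzyme named after its values were seen, counts as lower from its brightest probe set (-0.03), but its others gave 0.27, 0.29 and 0.51. Idh1 counts as higher (0.004), but its second probe set gave -0.04. Gsr, glutathione reductase, which returns oxidised glutathione for reuse, read 8.23 on the shDAB2 array against 7.80 on the vector array, 0.43 higher, and 0.21 higher on its second probe set. Gclm, a subunit of the rate-limiting enzyme of glutathione synthesis, was 0.23 higher and Taldo1, of the pentose phosphate pathway, 0.09 higher. Chac1, which degrades glutathione and is induced by ATF4, read 6.52 on the shDAB2 array against 7.18 on the vector array, 1.58-fold lower, and reached the floor in the vector clone only.

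The thioredoxin and peroxiredoxin list covers mostly enzymes of peroxide and disulphide reduction without selenium. Of 20 genes listed, 14 were measured, and all of these lay above the floor, with a median of 0.11. The difference was positive in 10 of the 14 (71.4%, against 50.02% of all genes above the floor). Sod2 (-0.02) and Srxn1 (-0.06) count as lower from their brightest probe sets, but their others gave 0.06 and 0.16, and 0.02 to 0.04. Glrx2 counts as higher (0.05), but its dimmest probe set gave -0.02. Sod1, superoxide dismutase, was 0.38 higher, although its dimmer probe set gave -0.15. Prdx4, the peroxiredoxin of the endoplasmic reticulum, differed by 0.35 on the brightest of its probe sets and by 0.07 and 0.20 on the others, a mean of 0.21. Txn2, mitochondrial thioredoxin, was 0.33 higher on its brightest and 0.12 and 0.19 on the others, a mean of 0.21. Txnip, the inhibitor of thioredoxin, read 8.35 on the shDAB2 array against 8.89 on the vector array, a difference of -0.53, with -0.63 on its second probe set.

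Targets of NRF2, a group to which Gpx2 and Txnrd1 are known to belong, split by sign much as all genes did when read from their brightest probe sets. The list leaves out Gpx2 and Txnrd1, which are described above. It includes Nfe2l2, which encodes NRF2 itself, and its regulator Keap1, at -0.20 and -0.12, and both count on the lower side. Of 31 genes listed, 27 were measured. Over 26 genes above the floor the median was 0.02, with 14 on the higher side (53.8%, against 50.02% of all genes above the floor) and 12 on the lower. Of the 26, 9 also stand in the glutathione or thioredoxin lists. On the lower side, Pgd, Srxn1 and Gstm1 change sign with the probe set, and no gene on the higher side does. Srxn1 gave -0.06 on its brightest probe set and 0.02 to 0.04 on the others. Gstm1 gave -0.22 on its brightest, an _x_at probe set, and 0.04, -0.03 and 0.04 on the others. With the mean of all probe sets, Pgd (0.26) and Srxn1 (0.008) moved to the higher side and Gstm1 stayed lower (-0.04). The list median was then 0.05, so the split by sign depends on the probe set rule. At 1.5-fold, 1 of the 26 was higher and 2 lower, where 0.578% and 1.62% of all genes were. The higher one was Cbr3, at 1.93-fold. Gstp1, a glutathione transferase, read 8.21 on the shDAB2 array against 9.06 on the vector array, 1.80-fold lower, and Sqstm1, the autophagy receptor p62, was 1.53-fold lower. Gsr completed the largest 4, at the 0.43 given above.

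**Figure D5:**
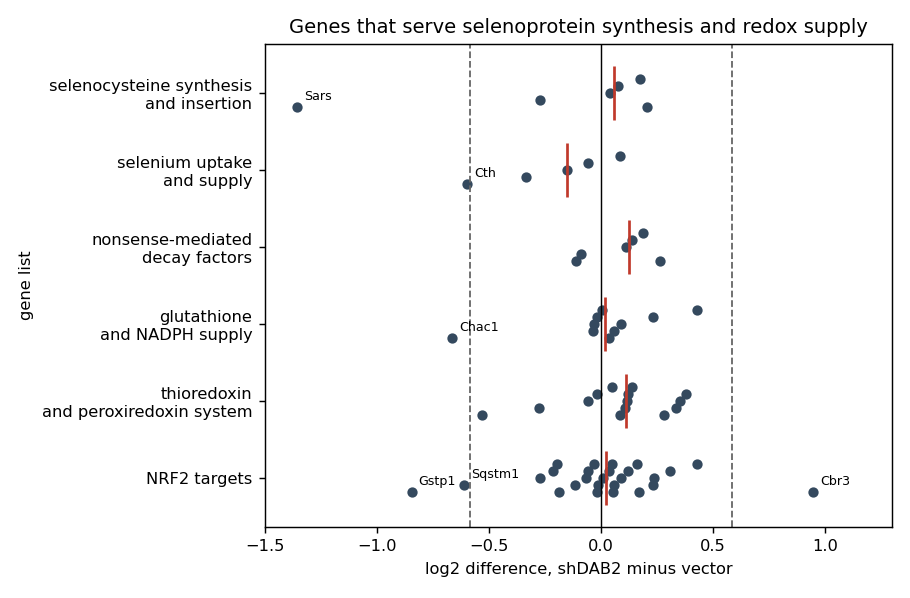
Log2 difference (shDAB2 minus vector) of each gene above the floor in 6 lists around selenoprotein synthesis and redox supply, 1 point per gene, with list medians as red bars and dashed lines at 1.5-fold; genes past 1.5-fold are named. List medians lie between -0.15 and 0.13, and Sars, at -1.36, is the point farthest from 0.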

How the data were processed

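RNA of 2 clones was hybridised to 1 array each, from 10 µg of total RNA. The deposited values are log2 expression values made with RMA, per the submitters' processing notes; its version and log base are not given in the sources used, and log2 was taken because RMA writes it. Gene names came from the platform annotation. Of 22626 probe sets, 20380 had 1 gene, 691 several and 1555 none here; only the first were used. All 14 selenoprotein probe sets matched the RefSeq gene table of GRCm38.p6 by gene ID. The probe set with the highest mean stood for a gene. With 1 array per group no test exists, the number of arrays limits the precision, and differences are described by size. The table holds 0 control probe sets and no detection calls. The genes, the selenium classes and the 8 surrounding lists were chosen with earlier results of these data known. Named are all selenoproteins, all genes measured in the synthesis and uptake lists, the 4 largest differences of each other list, the rank neighbours of Gpx1, Gpx2 and Selenoh, Dab2, and marker genes. Pgd, Idh1, Sod2, Srxn1, Glrx2, Gstm1, Nfe2l2 and Keap1 were named later, after their values were seen. The calculation was run on simulated data with known differences added, which checks its arithmetic only. Those data hold no spread between clones or cultures. Alternatives were cyclic loess (limma 3.58.1, R 4.3.3), median centring, other probe set rules, floors, fold limits and class memberships. Other work used Python 3.11.15, pandas 2.3.3 and matplotlib 3.10.9.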

Additional observations from a re-analysis of the deposited data

How the results depend on the processing

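The count of 4 selenoprotein genes at least 1.5-fold different stayed at 4 under cyclic loess and under removal of the span and signal trend. That removal was chosen after seeing the data. The count also stayed at 4 under median centring, the mean of all probe sets and no floor, but these could hardly change it. All 10 genes already passed the floor, and median centring shifts every gene by the same small amount. The 4 genes have 1 probe set each, so averaging leaves them as they were. The count was 3 with the floor at the 75th percentile, which drops Selenop and leaves 9 genes. It was also 3 without _s_at, _x_at and _a_at probe sets, which drops Gpx4, Selenop, Msrb1 and Txnrd1 and leaves 6 genes. By construction, the count was 6 at 1.2-fold and 1 at 2-fold. The gap between the class medians, 0.27, was 0.17 with Selenop counted as resistant, 0.16 with class means and 0.38 without Gpx2. It turned to -0.13 without _s_at, _x_at and _a_at probe sets, an alternative that leaves 4 sensitive and 2 resistant genes. Under the other alternatives it ran from 0.23 to 0.33. Gpx1 ran from 0.81 to 0.87, Gpx2 from 1.15 to 1.196 and Selenoh from 0.82 to 0.88, while Selenow ran from -0.04 to 0.27. With the floor at the 75th percentile the median of the other selenoproteins was 0.18 in place of -0.01, over 4 genes. That of the uptake and supply list was -0.47 in place of -0.15, over 2 genes. Counting each list once per alternative, the other 53 list medians shifted by under 0.11. Counting each gene once per alternative, 480 differences shifted by under 0.11, the SD of 1 probe set, and 14 by a larger amount. Many of these could not shift, so the 480 do not measure stability. A change of floor leaves each gene's difference as it was, and averaging probe sets leaves genes with 1 probe set as they were. No paired analysis was possible because each group holds 1 array. Dim signal limits Selenop and Gpx2, whose vector values lie near the floor.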
